A study of Homo sapiens with 12 samples.

Results

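Messenger RNA of 9 genes of prostaglandin synthesis, signalling and breakdown was followed in the human lung adenocarcinoma lines CL1-0 and CL1-5. The genes were chosen by symbol (PLA2G4A, PTGS1, PTGS2, PTGES, PTGES2, PTGES3, PTGER2, PTGER4 and HPGD), and every probe set annotated to only that symbol was used. This gave 18 of the 54675 probe sets on the array, and 9 of the 19775 genes with a probe set of their own. CL1-5 is known as a more invasive subline of CL1-0, so each line stands for a single lineage. Both lines were kept overnight with serum in a microfluidic chip. They then spent 2 h in serum-free medium, either with a direct-current electric field of 300 mV/mm (field) or at 0 mV/mm (no field), and were collected with trypsin. Each of the 4 groups (CL1-0 no field, CL1-0 field, CL1-5 no field, CL1-5 field) held 3 arrays that the labels call biological replicates. Nothing states that these came from separate cultures, so the p-values measure the spread between these arrays.

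Prostaglandins are short-range lipid signals made on demand. Cytosolic phospholipase A2 releases arachidonic acid from membranes, the cyclooxygenases turn it into prostaglandin H2, and terminal synthases turn that into prostaglandin E2 and related products. Prostaglandin E2 acts on G protein-coupled receptors, of which EP2 and EP4 raise cyclic AMP, and 15-hydroxyprostaglandin dehydrogenase inactivates it. In lung adenocarcinoma the inducible cyclooxygenase is often raised, and the dehydrogenase is often low.

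PLA2G4A, which encodes cytosolic phospholipase A2, and PTGS2, which encodes the inducible cyclooxygenase COX-2, were the members whose level passed the test between the lines in both settings, in opposite directions. With the replicate number as a block PTGES2 also passed in both settings and PTGER4 passed under the field. PLA2G4A signal lay above the array median in CL1-0 and near the bottom of the scale in CL1-5. PTGS2 was the reverse, though its CL1-5 signals were low, at 1.58 to 2.79 times the array median. PLA2G4A and PTGS2 are neighbours on chromosome 1 in the RefSeq gene order of GRCh38.p14, where the long non-coding RNA gene PACERR is the only gene listed between them. The 250 bases upstream of each annotated start are shown because these are the sequences next to the starts of these members. Capitals mark matches on either strand to an NF-kB-type motif (GGG and CC with 5 bases of any kind between), a C/EBP-type motif (TTNNGNAA), the CRE core (CGTCA) and the TATA box (TATAAA). Both come from RefSeq on GRCh38.p14, PTGS2 at chr1:186680424-186680673 on the minus strand and PLA2G4A at chr1:186828699-186828948 on the plus strand.
PTGS2: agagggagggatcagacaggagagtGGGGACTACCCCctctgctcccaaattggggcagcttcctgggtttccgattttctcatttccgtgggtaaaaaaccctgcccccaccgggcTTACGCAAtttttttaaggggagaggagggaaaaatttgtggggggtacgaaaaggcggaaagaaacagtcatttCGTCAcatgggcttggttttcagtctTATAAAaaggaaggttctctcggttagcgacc
PLA2G4A: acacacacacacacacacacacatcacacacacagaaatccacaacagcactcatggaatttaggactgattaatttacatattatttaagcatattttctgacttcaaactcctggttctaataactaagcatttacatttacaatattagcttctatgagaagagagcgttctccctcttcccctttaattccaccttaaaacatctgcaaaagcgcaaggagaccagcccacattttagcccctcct
In the PTGS2 window 4 overlapping matches of the NF-kB type lay 225 to 214 bases before the start, the C/EBP-type match lay 133 to 126 bases before it, the CRE core 58 to 54 and the TATA box 32 to 27. The CRE core overlapped an E-box match (CANNTG) at 55 to 50. The PLA2G4A window held no match to these 4 motifs and an E-box match 46 to 41 bases before the start. Among 35116 annotated human promoter windows of this length, 54.4% held the NF-kB type, 33.2% the C/EBP type, 21.2% the CRE core, 10.7% the TATA box and 61.8% the E-box. These are letter matches only, and the arrays do not measure binding to them.

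The values are array signals on a linear intensity scale, with an array median between 60.7 and 72.4. A level given as log2 is the mean of log2 signals with the SD over 3 arrays, and a change is a log2 difference with its standard error (SE), from limma on 31890 probe sets. To enter the fit a probe set had to exceed its array's median signal on 3 or more of the 12 arrays. Of the 18 probe sets of the prostaglandin genes 8 passed this filter, from 7 genes. No probe set of PTGS1 or PTGER2 passed. Replicate 1 of each group came without the poly-A spike-in signal (dap, a bacterial control transcript that can be added before labelling), at 5.98 to 10.8 against 790.1 to 1078 on the other 8 arrays. Each group thus holds 1 array without that signal and 2 with it.

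The cell type labels were set beside marker lists. Of 7 epithelial markers on the array, 5 lay above the array median on all arrays of both CL1-0 groups and 3 (KRT7, KRT8 and KRT18) in both CL1-5 groups, where EPCAM lay between 16.3 and 56.2. CL1-0 arrays differed widely in these markers. Without the field the 7 summed to 3194 to 18684 in CL1-0, with EPCAM between 137.6 and 1539, and to 16407 to 25436 in CL1-5. NKX2-1 and SFTPB, of the lung lineage, lay above the median on every array, and FOXA2 and NAPSA on every CL1-5 array. FOXA2 lay between 8.39 and 106.01 in CL1-0 and between 264.3 and 722.9 in CL1-5. The summed signal of 7 leukocyte markers was 148.3 to 413.98, with PTPRC between 8.79 and 53.7. The summed signal of 8 fibroblast markers was 532 to 1194. COL1A1 of the fibroblast list and PECAM1 of the endothelial list lay above the median in all 4 groups, and ITGAM of the leukocyte list in CL1-0 field. Other fibroblast markers stood apart between the lines, POSTN at 85.5 to 304.6 in CL1-0 and 8.48 to 21.4 in CL1-5, and PDGFRA at 3.94 to 21.4 in CL1-0 and 108.5 to 209.2 in CL1-5. The 7 endothelial markers summed to 189.7 to 243.2 in CL1-0 and 992.8 to 2978 in CL1-5, where ESAM and TIE1 lay above the median. Their part in the differences between the lines was not tested.

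**Figure D1:**
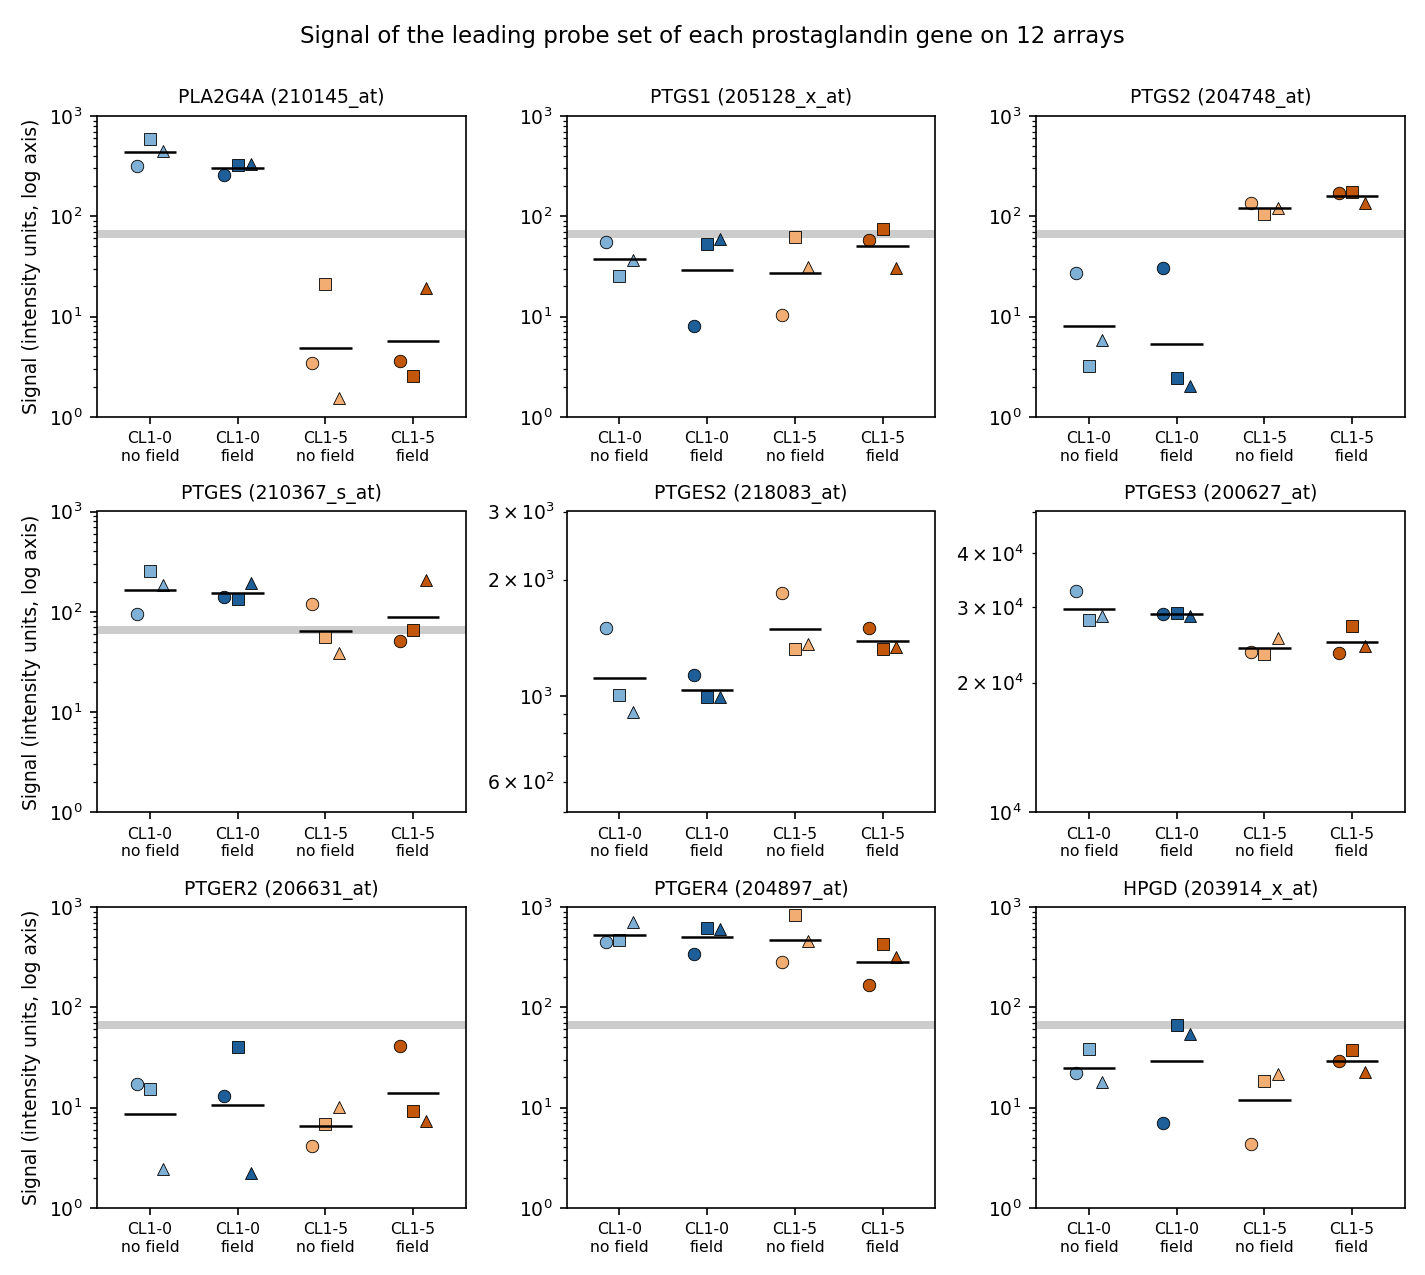
Signal of the leading probe set (the one with the highest mean log2 signal) of each of the 9 genes, on a log axis that differs between panels. Circles, squares and triangles are replicates 1, 2 and 3, black bars are means of log2 signals, and the grey band spans the 12 array medians. PLA2G4A lies at 257.3 or more in CL1-0 and at 21.3 or less in CL1-5, and PTGS2 lies at 30.6 or less in CL1-0 and at 106.002 or more in CL1-5.

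The first question was how the lines differ along the pathway, beginning with arachidonate release. PLA2G4A signals without the field were 315.5, 593 and 445.7 in replicates 1 to 3 of CL1-0 and 3.45, 21.3 and 1.54 in CL1-5. Under the field they were 257.3, 327.7 and 331.98 in CL1-0 and 3.63, 2.57 and 19.3 in CL1-5. Every CL1-0 array lay above its array median and every CL1-5 array below it, with no overlap in either setting. The difference (CL1-5 minus CL1-0) was −6.50 ± 0.96 on the log2 scale without the field (adjusted p = 0.000871) and −5.75 ± 0.96 under it (adjusted p = 0.00202; SE, n = 3 per group). A bound on the mean fold of these arrays was taken by lifting sub-median signals to the median of their array. Wherever it is used, this bound allows for low signals only and not for the spread between arrays. By this bound the mean level was at least 6.54-fold lower in CL1-5 without the field and at least 4.61-fold lower under it. The 95% intervals of the lifted log2 differences were −3.32 to −2.10 without the field and −2.81 to −1.60 under it. In RNA of a whole culture, fewer cells with a transcript and less of it per cell cannot be told apart.

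The cyclooxygenases convert the released arachidonic acid. The leading PTGS2 probe set gave 27.1, 3.19 and 5.83 in replicates 1 to 3 of CL1-0 without the field, and 136.3, 106.002 and 120.4 in CL1-5. Under the field it gave 30.6, 2.43 and 2.02 in CL1-0 and 168.7, 172.7 and 135.4 in CL1-5. Signals of both lines stood apart in either setting, and the CL1-5 signals lay above the array median on all 6 arrays. PTGS2 was higher in CL1-5 by 3.92 ± 1.07 without the field (adjusted p = 0.0332) and by 4.89 ± 1.07 under it (adjusted p = 0.0101). By the same bound its mean level was at least 1.90-fold and at least 2.40-fold higher. The 95% intervals of the lifted log2 differences were 0.54 to 1.32 without the field and 0.87 to 1.65 under it.

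The call without the field rests on few arrays. It ended without replicate 2 or 3 of CL1-0 no field (adjusted p = 0.115 and 0.1002), without replicate 1, 2 or 3 of CL1-5 no field (0.0887, 0.0842 and 0.0968) and without replicate 2 or 3 of CL1-5 field (0.0528 and 0.0534). The SD of log2 signal was 1.59 and 2.19 in the CL1-0 groups without and with the field, against 0.18 and 0.19 in CL1-5. In CL1-0 the 27.1 and 30.6 came from the arrays without the spike-in signal. On the 8 arrays with that signal PTGS2 was higher in CL1-5 by 4.71 ± 0.98 without the field (limma, adjusted p = 0.00608) and by 6.11 ± 0.98 under it (adjusted p = 0.00132). The CL1-0 signals left there were 2.02 to 5.83, near the bottom of the scale, so the size of these differences is not dependable. The other PTGS2 probe set lay between 3.26 and 75.7 and above the array median on 1 array, so it was not in the fit. In a fit with no filter its line difference was 1.17 ± 1.03 without the field and 1.55 ± 1.03 under it (adjusted p = 0.698 and 0.508), with overlapping lines in both.

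PTGS1, the constitutive cyclooxygenase COX-1, had 4 probe sets, none of which passed the filter. Their signals lay between 3.13 and 74.6 over all arrays, and 2 of the 4 reached above the array median on 1 array each. The leading probe set gave 25.1 to 55.7 in CL1-0 and 10.4 to 62 in CL1-5 without the field, and 8.04 to 58.7 and 30.5 to 74.6 under it. The lines overlapped in both settings.

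The terminal prostaglandin E synthases were read by 4 probe sets, all in the fit. PTGES encodes the inducible membrane-bound synthase mPGES-1, which is often paired with COX-2. Its leading probe set gave 96.1, 255.3 and 183.1 in CL1-0 and 118.9, 55.8 and 38.8 in CL1-5 without the field. Under the field it gave 141.5, 133.5 and 192.8 in CL1-0 and 51.3, 66.5 and 208.5 in CL1-5. Signals of both lines overlapped in both settings, with differences of −1.38 ± 0.59 (adjusted p = 0.176) and −0.79 ± 0.59 (adjusted p = 0.459). On the arrays with the spike-in signal alone the difference without the field was −2.22 ± 0.52 (limma, adjusted p = 0.0115). The second PTGES probe set gave differences of −1.09 ± 1.02 and −1.71 ± 1.02 (adjusted p = 0.616 and 0.333), with 4 of 12 arrays above the median.

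PTGES2 encodes the synthase mPGES-2. Its signals were 1502, 1003 and 909.9 in CL1-0 and 1844, 1323 and 1363 in CL1-5 without the field, and 1131, 994.2 and 994.3 against 1500.4, 1322 and 1338 under it. The lines overlapped without the field and not under it. The differences were 0.43 ± 0.23 (adjusted p = 0.313) and 0.42 ± 0.23 (adjusted p = 0.3005), and with the replicate number as a block they passed, at adjusted p = 0.0484 and 0.0495.

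PTGES3 encodes the cytosolic synthase, better known as p23, a co-chaperone of HSP90. Its signals lay between 27971 and 32736 in CL1-0 and between 23298 and 27066 in CL1-5. No array of a line overlapped the other line within a setting, and the differences of −0.30 ± 0.12 and −0.21 ± 0.12 did not pass (adjusted p = 0.145 and 0.319). RefSeq lists pseudogenes of PTGES3, and whether its probe set also reads them was not tested.

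Of the prostaglandin E2 receptors, PTGER4 (EP4) lay above the array median on all 12 arrays and PTGER2 (EP2) on none. PTGER4 signals without the field were 449.7, 468.3 and 713.1 in CL1-0 and 282.5, 827.9 and 452.9 in CL1-5. Under the field they were 338.4, 623.9 and 608.3 in CL1-0 and 166.1, 430.02 and 313.98 in CL1-5. Signals of both lines overlapped in both settings. The difference was −0.17 ± 0.45 without the field (adjusted p = 0.896) and −0.84 ± 0.45 under it (adjusted p = 0.277), and the latter passed with the replicate block (adjusted p = 0.0309). The second PTGER4 probe set lay between 8.86 and 79.99 and above the median on 1 array. Under the field its lines did not overlap, at 14.6 to 23.3 in CL1-0 and 8.86 to 14.0 in CL1-5, all below the array median. In a fit with no filter that difference was −0.83 ± 0.77 (limma, adjusted p = 0.671). PTGER2 signals lay between 2.23 and 40.9, and the lines overlapped.

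HPGD, which encodes the dehydrogenase that inactivates prostaglandin E2, had 4 probe sets, above the array median on 0 to 3 of the 12 arrays. Only the probe set with 3 such arrays passed, and all 3 were CL1-0 arrays. It gave 6.37, 55.4 and 78.7 in CL1-0 and 3.31, 7.61 and 11.7 in CL1-5 without the field, and 17, 86 and 85 against 64.8, 0.576 and 3.10 under it. The lines overlapped in both settings, and the differences of −2.19 ± 1.61 and −3.09 ± 1.61 did not pass (adjusted p = 0.487 and 0.259). On the arrays with the spike-in signal alone, the difference under the field was −5.60 ± 1.14 (limma, adjusted p = 0.00503). Those arrays keep the 3 CL1-0 arrays through which the probe set entered the fit and leave out the 64.8 of CL1-5. That p is therefore no support for a line difference. After lifting sub-median signals the difference under the field was −0.27 over all 12 arrays. The leading HPGD probe set, which did not pass, lay between 4.30 and 66.7, and the lines overlapped. In CL1-5 its field signals (22.7 to 37.3) did not overlap its no-field signals (4.30 to 21.4), all below the array median. In a fit with no filter that field difference was 1.28 ± 0.92 (limma, adjusted p = 0.999944). Another HPGD probe set, above the median on 2 arrays and so not in the fit, gave 33.7 to 86.7 in CL1-0 and 2.94 to 23.4 in CL1-5 under the field, with no overlap. In a fit with no filter its difference was −3.12 ± 1.02 under the field (limma, unadjusted p = 0.00908, adjusted p = 0.0988), and without the field the lines overlapped.

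**Figure D2:**
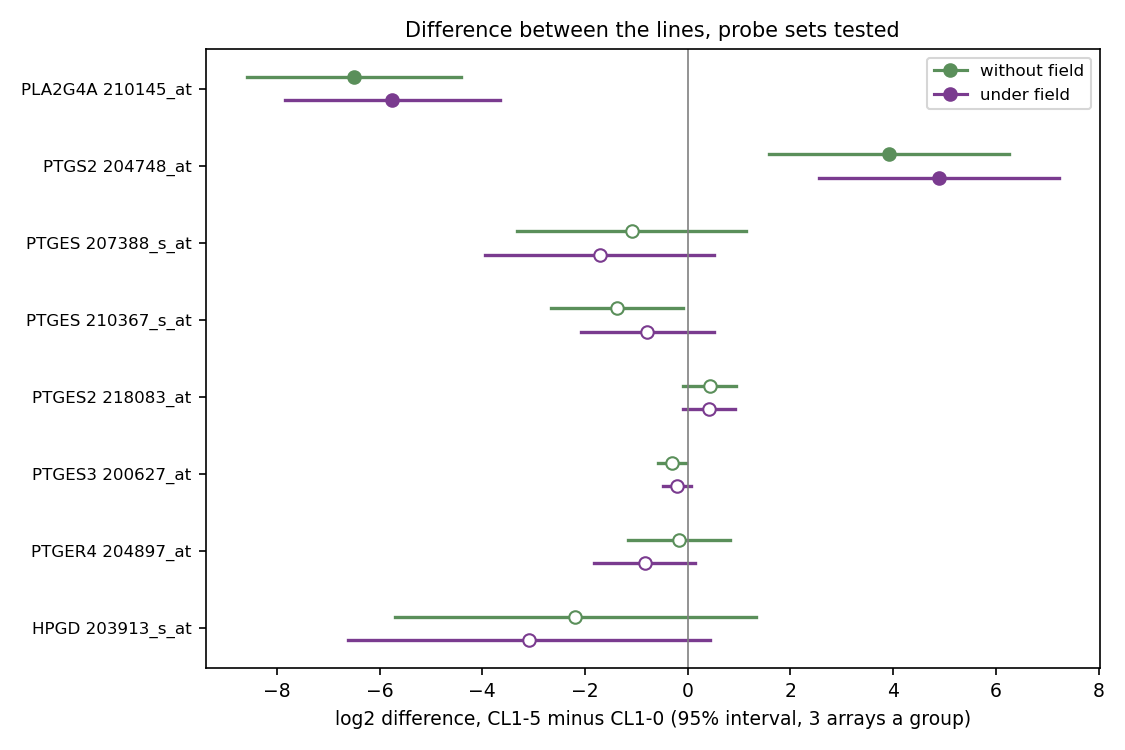
Difference between the lines (log2, CL1-5 minus CL1-0) for the 8 probe sets in the fit, without the field (green) and under it (purple), with 95% intervals from 3 arrays a group. Filled points passed an adjusted p of 0.05, which only PLA2G4A (−6.50 and −5.75) and PTGS2 (3.92 and 4.89) did.

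In all, 2 of the 8 tested probe sets passed without the field, 1 higher and 1 lower in CL1-5, against 12.1% of all tested probe sets (6.53% higher and 5.58% lower). Under the field the count was again 2 of 8, 1 higher and 1 lower, against 13.4% (7.03% higher and 6.41% lower). The lines stood apart without overlap in 3 of the 8 without the field, against 28.8% of all tested probe sets, and in 4 of the 8 under it, against 30.8%. With the replicate number as a block 3 of 8 passed without the field, against 28.5%, and 4 of 8 under it, against 31.6%. The lines differ in many genes, so these counts are read as a description of PLA2G4A and PTGS2 and not as a property of the set.

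The genes that flank PTGS2 and PLA2G4A were read next, a set chosen after the values were seen: the 4 nearest protein-coding genes on each side with a probe set of their own. TPR, a nuclear pore gene, gave a difference of −0.19 ± 0.39 without the field (adjusted p = 0.86) and ODR4 by −0.40 ± 0.33 (adjusted p = 0.55). The lines overlapped for both. PRG4, PDC, BRINP3, RGS18, RGS1 and RGS13 did not pass the filter, with a highest signal of 64.004 over both settings. The stretch was centred on PTGS2 and PLA2G4A, already called, so their calls are no result of this reading. Of the flanking genes only TPR and ODR4 were tested, and neither was called in either setting.

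**Figure D3:**
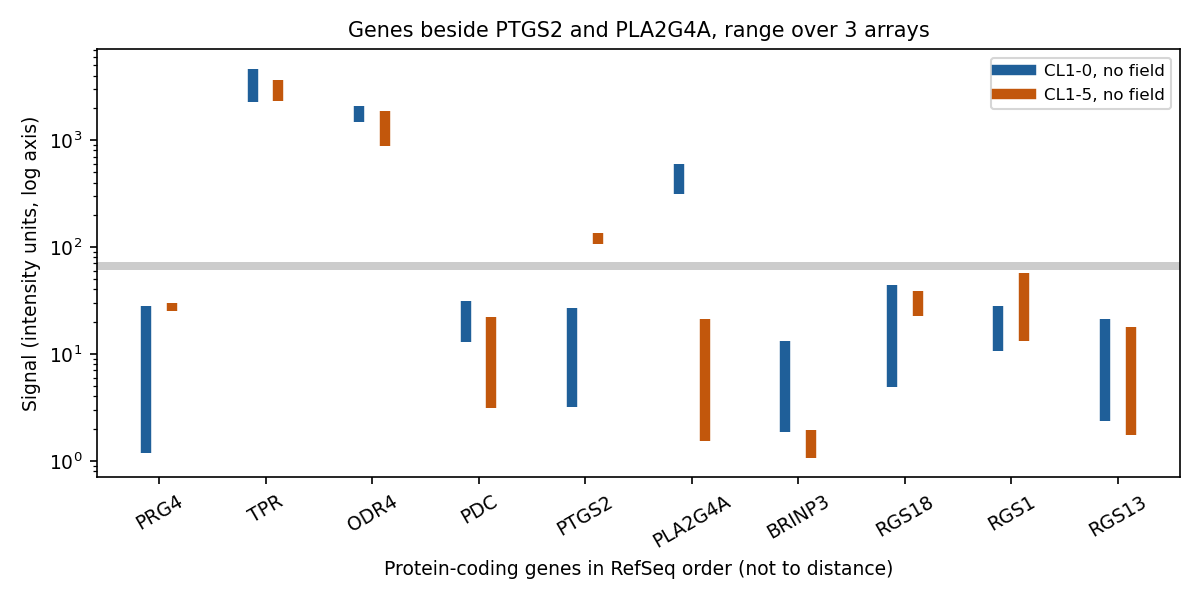
Range of signal over 3 arrays without the field in CL1-0 (blue) and CL1-5 (orange), on a log axis, for the leading probe sets of PTGS2, PLA2G4A and the 4 protein-coding genes listed on each side. The grey band spans the array medians, lines are compared within a gene only, and PTGS2 and PLA2G4A are above the band in opposite lines.

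The second question was how each line responds to the field. No prostaglandin probe set passed in CL1-0, in CL1-5, in the mean over both lines or in the difference of the response between the lines (limma, 0 of 8 in each). Over all tested probe sets the share past the threshold was 0% in each of these 4 comparisons. At an unadjusted p below 0.05 the prostaglandin count was also 0 in each, while 337, 531, 296 and 382 of all 31890 tested probe sets lay below it. Each of these is a smaller share than the 0.05 that would lie there with no field difference in any probe set. A count of 0 of 8 therefore does not show that the field had no effect. The lowest adjusted p of a prostaglandin probe set over the 4 comparisons was 0.999938. With the replicate block 0 of 8 passed in each comparison, against 0.00314% of all tested probe sets in CL1-0 and 0% in the others. Field and no-field arrays overlapped for all 8 in both lines, against a share without overlap of 3.68% of all tested probe sets in CL1-0 and 5.47% in CL1-5.

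PTGS2 gave higher signals with the field in each of the 3 replicate pairs of CL1-5, with log2 differences of 0.31, 0.70 and 0.17, and its field and no-field arrays overlapped. The mean was 0.39 ± 1.07 (95% interval −1.94 to 2.73), with an SE that the fit shares with the low and scattered CL1-0 signals. After lifting sub-median signals it was 0.39 ± 0.18 (95% interval 0.0032 to 0.78, unadjusted p = 0.0484, limma), and the adjusted p was 0.999994. In CL1-0, where all PTGS2 signals lay below the array median, the pairs were 0.17, −0.39 and −1.53. PTGER4 gave lower signals with the field in each pair of CL1-5, with log2 differences of −0.77, −0.95 and −0.53, a mean of −0.75 ± 0.45 (95% interval −1.73 to 0.24). With the replicate block the interval was −1.33 to −0.16, the unadjusted p was 0.0161 and the adjusted p 0.725. In CL1-0 the PTGER4 pairs were −0.41, 0.41 and −0.23, and the difference between the lines in the response was −0.67 ± 0.64 (unadjusted p = 0.315, limma).

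PLA2G4A gave lower signals with the field in each pair of CL1-0, with log2 differences of −0.29, −0.86 and −0.42, a mean of −0.52 ± 0.96 (95% interval −2.61 to 1.56), and the field and no-field arrays overlapped. Its CL1-5 signals stayed near the bottom of the scale. The PTGES difference was −0.10 ± 0.59 in CL1-0 and 0.49 ± 0.59 in CL1-5, where replicate 3 went from 38.8 to 208.5 and replicate 1 from 118.9 to 51.3. The intervals were narrowest for PTGES3, at −0.31 to 0.22 in CL1-0 and −0.22 to 0.32 in CL1-5, and for PTGES2, at −0.61 to 0.41 and −0.62 to 0.40. For the remaining tested probe sets they reached past 0.9 in at least 1 direction in each line. After lifting sub-median signals the intervals in CL1-5 were narrower for HPGD, at −0.35 to 0.31, and for the second PTGES probe set, at −0.40 to 0.24, since most of their signals then sit at the array median.

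**Figure D4:**
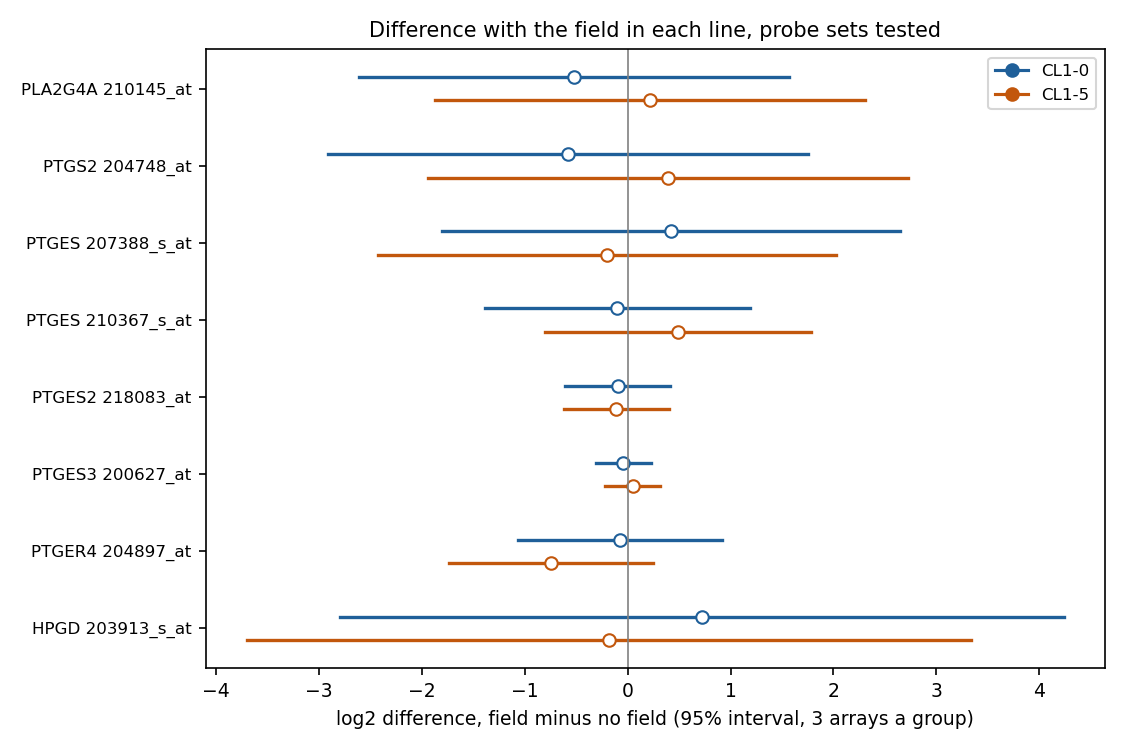
Difference with the field (log2, field minus no field) for the 8 probe sets in the fit, in CL1-0 (blue) and CL1-5 (orange), with 95% intervals from 3 arrays a group. All points are open because none passed an adjusted p of 0.05, and every interval spans 0.

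Other genes of the pathway were read from 7 lists with 104 entries, of which 96 were on the array and 75 passed the filter, each gene by its leading probe set. Without the field 11 were higher and 14 lower in CL1-5, against 8% and 7.62% of all 13882 genes. Under the field 12 were higher and 13 lower, against 8.77% and 8.28%. With the replicate block 16 were higher and 19 lower without the field, against 16.1% and 18% of all genes, and 20 and 19 under it, against 16.9% and 20%. These shares of all genes also apply to the counts of each list below. For the field itself 0 of the 75 passed in either line, in the mean or in the difference between the lines (limma, with 1 gene at an unadjusted p below 0.05 in each). Chosen after their values were seen, those genes were PLA2G4C, a phospholipase A2, in CL1-0 and in the mean, ID1 in CL1-5 (0.37 ± 0.15) and IL1A in the difference. PLA2G4C lay at 22.6 to 34.1 in CL1-0 without the field, below the array medians. Its field difference there was 1.35 ± 0.50 and did not pass (limma, adjusted p = 0.999978). After lifting sub-median signals the mean difference was 1.40-fold. IL1A was also below the median in CL1-0, and its levels are given with the regulators of PTGS2. Over all genes the median line difference was −0.03 without the field and −0.08 under it.

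Among 11 tested genes of phospholipases A2 and arachidonate release, 1 was higher and 1 lower in CL1-5 in both settings, with medians of 0.16 without the field and 0.02 under it. With the replicate block 2 were higher and 2 lower in both settings, the added genes, named after their values were seen, being PLA2G15 (adjusted p = 0.00255 without the field) and LPCAT3 (adjusted p = 0.00822). ANXA1, encoding annexin A1, an inhibitor of cytosolic phospholipase A2, gave 26419 to 28793 in CL1-0 and 583.2 to 1009.97 in CL1-5 without the field, a difference of −5.14 ± 0.27 (adjusted p = 6.25e-07). MGLL, encoding monoacylglycerol lipase, which can also supply arachidonate, gave 83.9 to 193.7 against 2690 to 3663, a difference of 4.73 ± 0.35 (adjusted p = 7.83e-06). Thus PLA2G4A and the gene of its inhibitor were both lower in CL1-5.

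Of 8 other prostanoid synthases and reductases, 1 was higher and 4 were lower without the field, with a median of −1.09, and 1 and 3 under it, with a median of −0.65. TBXAS1 (thromboxane synthase) gave 9.04 to 38.3 in CL1-0 and 131 to 303.6 in CL1-5, at least 3.14-fold higher by the bound above (adjusted p = 0.00392 in the fit of all signals). PTGDS (prostaglandin D synthase) was lower, at −1.80 ± 0.49, and so were the glutathione transferase genes GSTM2 and GSTM3, at −1.37 ± 0.30 and −1.14 ± 0.21. The remaining lower gene, outside the naming rule, was CBR1, a carbonyl reductase that acts on prostaglandin E2, at −1.04 ± 0.24. Under the field CBR1 passed only with the replicate block (−0.74 ± 0.24, adjusted p = 0.0673 without the block and 0.017 with it). With the block the list had 1 higher and 5 lower without the field, PTGIS (prostacyclin synthase) being added at adjusted p = 0.0475, and 1 and 4 under it.

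Of 5 tested genes in the list of other prostanoid receptors, PTGFRN passed in both settings, and the medians were −0.17 without the field and 0.41 under it. PTGFRN encodes a membrane protein that inhibits binding to the prostaglandin F receptor and is no receptor itself. It gave 28.6 to 67.1 in CL1-0 and 1049 to 1569 in CL1-5 without the field, at least 20.8-fold higher by the same bound (adjusted p = 9.43e-06 in the fit of all signals).

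Of 7 genes of prostaglandin transport and breakdown, PTGR3, a prostaglandin reductase, was higher by 2.09 ± 0.34 without the field (adjusted p = 0.00183) and by 1.81 ± 0.34 under it (adjusted p = 0.00444). ABCC4, an exporter of prostaglandin E2, was lower under the field, at −1.14 ± 0.31 (adjusted p = 0.0323), passed without the field only with the replicate block (adjusted p = 0.00714), and is named after its values were seen. The list medians were 0.64 and −0.58. With the block 2 were higher and 2 lower without the field, SLCO4A1 (adjusted p = 0.0215) and PTGR1 (adjusted p = 0.0319) being added. Of 8 lipoxygenase and leukotriene genes, EPHX2 (soluble epoxide hydrolase) and LTA4H (leukotriene A4 hydrolase) were lower without the field. EPHX2 gave 200.7 to 246.1 in CL1-0 and 18.7 to 62.2 in CL1-5, at least 3.29-fold lower by the bound (adjusted p = 0.0115 in the fit of all signals), and LTA4H was at −0.86 ± 0.19. Under the field EPHX2 was at least 3.56-fold lower (adjusted p = 0.0207), and ALOX5AP, the 5-lipoxygenase activating protein, also named after its values were seen, was at least 3.19-fold higher (adjusted p = 0.01). LTA4H passed under the field only with the block (adjusted p = 0.00982). The list medians were −0.48 and −0.22. With the block 1 was higher and 2 lower in both settings.

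Of 20 tested genes known to act on the PTGS2 transcript, 6 were higher and 0 lower without the field, with a median of 0.47. Under the field 6 were higher and 1 lower, with a median of 0.58. Over all genes 8% were higher and 7.62% lower without the field, and 8.77% and 8.28% under it. The list holds genes that can raise this transcript and genes that can lower it, so its counts have no single direction for PTGS2. The interleukin-1 genes, whose products induce PTGS2, were among the higher genes. IL1A gave 21.6 to 28.4 in CL1-0 and 373.2 to 694.6 in CL1-5 without the field, at least 7.53-fold higher by the bound (adjusted p = 8.35e-05 in the fit of all signals). IL1B was higher by 3.10 ± 0.43, and JUN, a subunit of AP-1, by 3.90 ± 0.24. EGFR, whose signalling can also induce PTGS2, was higher by 2.14 ± 0.36. ZFP36L1, of the genes that can lower the transcript, gave 1793 to 2027 in CL1-0 and 5849 to 9068 in CL1-5 without the field. It is outside the naming rule and named after its values were seen. Whether any gene of this list bears on the PTGS2 difference was not tested. The lower gene under the field, named after its values were seen, was ELAVL1, which stabilises the PTGS2 transcript, at −0.83 ± 0.21. With the block 7 were higher and 1 lower without the field, the lower gene being ELAVL1 (adjusted p = 0.00868), and 9 and 2 under it.

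Genes of the cyclic AMP and CREB response, which EP2 and EP4 can induce, had 1 of 16 higher and 7 lower without the field, and 1 higher and 6 lower under it. The balance under the field depends on the block, with which 2 were higher and 7 lower without the field and 5 were higher and 8 lower under it. The medians were −1.05 and −1.09. NR4A3, an inducible nuclear receptor gene, gave 204.4 to 489.4 in CL1-0 and 27.4 to 62.5 in CL1-5 without the field, at least 4.22-fold lower by the bound (adjusted p = 0.00559 in the fit of all signals). PDE4D and PDE4B, phosphodiesterases that break down cyclic AMP, were lower at −2.65 ± 0.31 and −2.06 ± 0.30. DUSP1, a MAP kinase phosphatase gene that other pathways also induce, was higher by 2.55 ± 0.22.

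**Figure D5:**
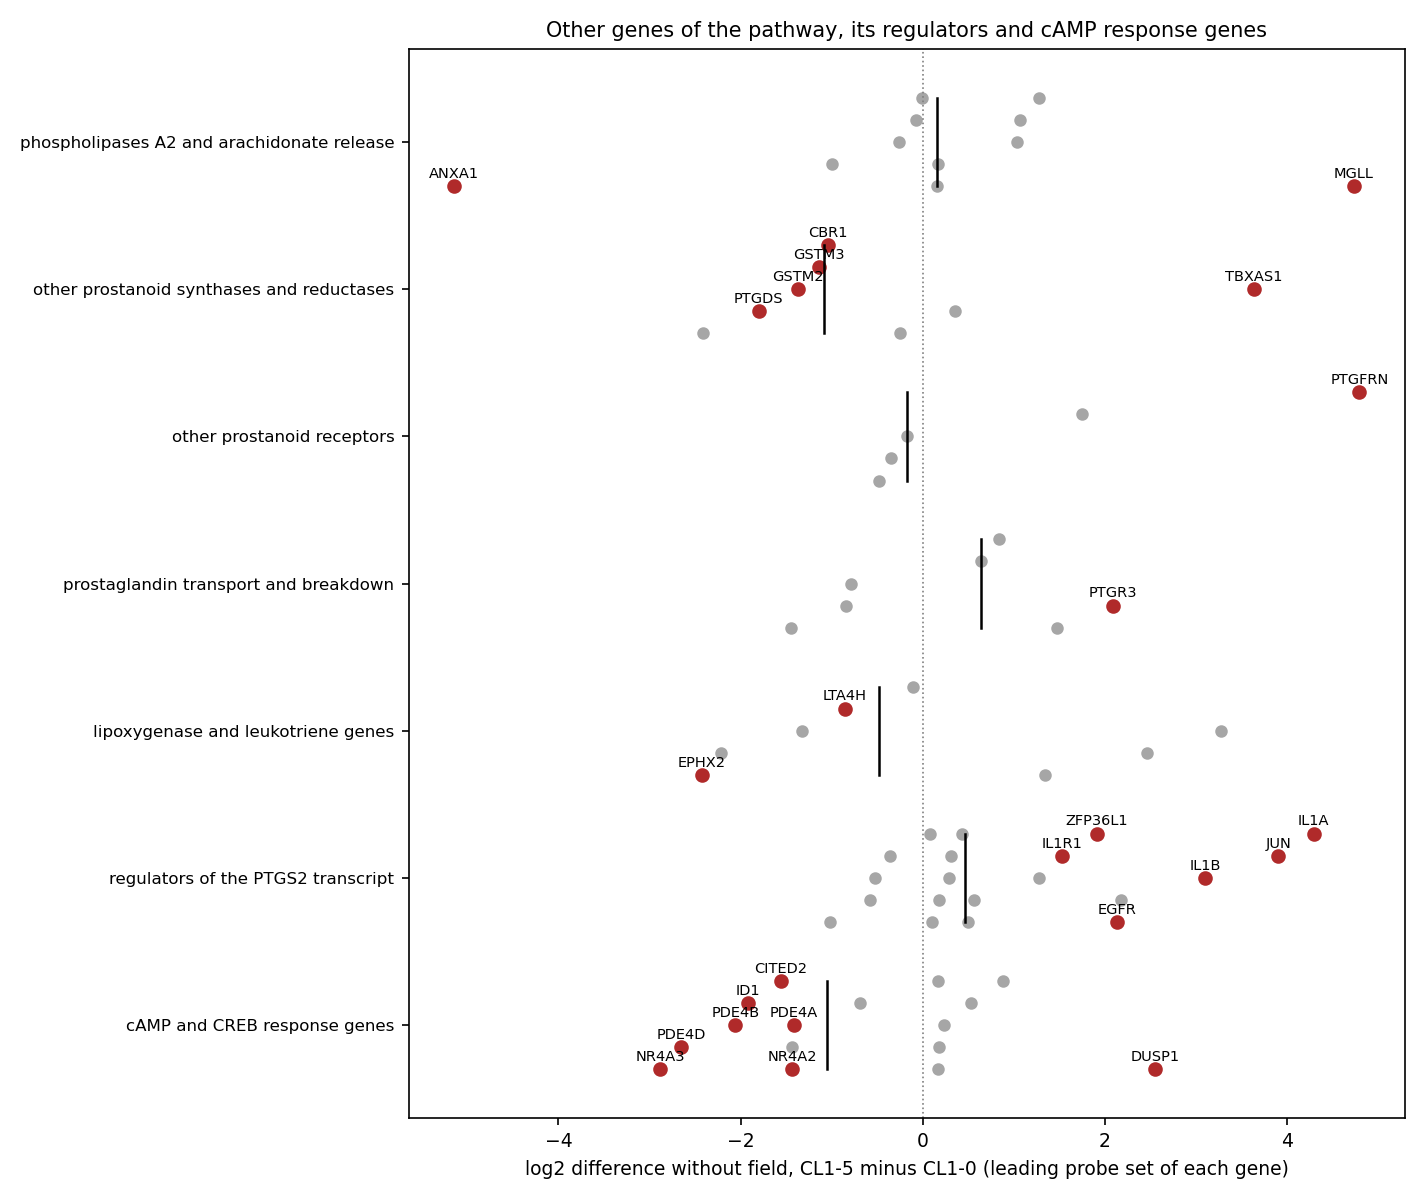
Line difference without the field (log2, CL1-5 minus CL1-0) of the 75 tested genes of 7 lists, each by its leading probe set. Red points with names passed an adjusted p of 0.05, grey points did not, and black bars are list medians, from −1.09 for the other synthases to 0.64 for transport and breakdown.

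The genes whose log2 signals over the 12 arrays were most like those of PTGS2 were GNG12, MCL1 and SPRED2, with Pearson's r of 0.988, 0.983 and 0.98. For PLA2G4A they were ID4, RAP2C and CPEB1, with r of 0.984, 0.979 and 0.977. These values are a description over the same 12 arrays, which share the line difference that sets both members apart.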

How the data were processed

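The deposited values are MAS5 signals in linear intensity units, per the submitters' processing notes; the sources used here do not give its version or whether values were filtered. Array means without the lowest and highest 2% were 500.07 to 500.08, so no further scaling was done. Values under 1 (3691) were set to 1 and taken to log2. The annotation gives 1 symbol to 41097 probe sets, more than 1 to 1801 and no symbol to 11777, and 62 controls were left out. R 4.3.3 ran limma 3.58.1, with a mean for each of the 4 groups and a trended prior on the variance, and the threshold was 0.05 after Benjamini-Hochberg adjustment over 31890 probe sets. The steps were tested on simulated data. The number of arrays limits the precision.

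The genes, lists and tests were chosen with earlier results of these data known. Named pathway genes are up to 4 of each list with the largest change among those that passed without the field. Pattern neighbours are the 3 genes with the highest Pearson's r for each member called between the lines.

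Arrays of the same replicate number were compared with arrays of different numbers. As deviations from group means, same-numbered arrays correlated at 0.27 to 0.665 within a line and 0.254 to 0.581 across lines, against −0.534 to 0.322 and −0.455 to 0.286 for different numbers. Deviations from a group mean sum to 0 within a group, which pulls the values for different numbers down. Every negative value involved replicate 1, which lacks the spike-in signal. Replicates 2 and 3 correlated with each other at 0.222 to 0.322. Pairing by number and the split by spike-in signal therefore cannot be told apart here. The labels state no pairing. The replicate block is given beside a result of the 9 genes, a pathway list count or a named pathway gene where it changes the call. The alternatives were quantile normalization, centring each array on its median, and floors at the 10th percentile (5.05) and at the array median. Others were no filter, a stricter filter (above percentile 60 on 6 arrays), and 1 probe set a gene or an average. That average took in only probe sets that passed the filter. For HPGD and PTGS2 it therefore read 1 probe set, which gave HPGD −3.09 under the field as before. The rest were a prior without trend, a fit of the compared groups alone, the replicate block and the spike-in batch as a block. Last came only the arrays with spike-in signal, and leaving out each array. Promoter windows and the gene order are RefSeq's on GRCh38.p14; all 9 symbols matched. Protein sequences were not used here.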

Additional observations from a re-analysis of the deposited data

How the results depend on the processing

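PLA2G4A kept its call and direction under all 25 alternatives in both settings, with changes from −7.57 to −2.71 without the field and −6.64 to −2.21 under it. PTGS2 kept its direction under all 24 that tested it. The average over tested probe sets is among these and read PTGS2 by its leading probe set only. The call of PTGS2 held in 17 of the 24 without the field (adjusted p from 0.00365 to 0.115). Under the field it held in all 24 (highest adjusted p 0.0421). Leaving out each array gave 1 to 2 called probe sets without the field and 2 to 2 under it. The stricter filter left 1 in each setting, because PTGS2 was not in that fit. Without the field, the arrays with the spike-in signal alone gave 4 (PTGS2 and PTGES2 higher, PLA2G4A and PTGES lower). Under the field, the replicate block and the presence of the spike-in signal as a block each gave 4 (PTGS2 and PTGES2 higher, PLA2G4A and PTGER4 lower). These blocks are not independent, since replicate 1 of each group is the array without that signal. The replicate block gave 3 without the field, adding PTGES2, and 0 in the 4 field comparisons; it changed no other call among the 9 genes. For the field comparisons the count was 0 under every alternative run. Of 906 alternative values for the 9 genes, 59 changed sign, none of them past the threshold on either side. Signals near the bottom of the scale limit PTGS1, PTGER2, HPGD, PTGS2 in CL1-0 and PLA2G4A in CL1-5, whose levels there have no dependable order.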
